A study of Mus musculus with 8 samples.

Results

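The core transcription factors of the heart muscle cell were examined as 10 genes picked by symbol: the GATA factors Gata4 and Gata6, the NK2 factor Nkx2-5, the MEF2 factors Mef2a, Mef2c and Mef2d, the T-box factors Tbx5 and Tbx20, and the HAND factors Hand1 and Hand2. Each symbol stands on 1 of the 48440 entries of the deposited count table, and 10 of 10 passed the filter on low counts, which kept 13771 genes. The samples were purified cardiomyocytes of C57BL6/J mouse pups at postnatal day 2, and each of 4 litters gave a male and a female sample. The male and the female group (n = 4 each) therefore shared strain, age and litters, and no transgene or treatment is named in the labels. The labels do not say whether a sample is 1 heart or several pooled, and give neither the purification method nor the day on which a litter was processed, and the part of that day in a litter difference cannot be told apart from litter itself.

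These factors bind one another and share enhancers in heart muscle, where GATA, NK2, MEF2, T-box and HAND sites lie close together in front of genes for the contractile apparatus, ion channels and natriuretic peptides. GATA4 and GATA6 are paralogous zinc finger proteins with overlapping roles, and NKX2-5 is a homeodomain protein among the earliest markers of the cardiac lineage. MEF2 proteins are MADS-box factors held in check by class II histone deacetylases and released by calcium signals. TBX5 acts together with GATA4 and NKX2-5, TBX20 both activates and represses chamber genes, and the HAND proteins are basic helix-loop-helix factors, HAND1 being known for the left and HAND2 for the right ventricle of the embryo. Several of them, GATA4, GATA6, TBX20 and HAND2 among them, are also made by non-muscle cells of the heart.

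Total counts ran from 14226342 to 24910243 per library. The labelled cell type was checked on marker lists: 11 of 11 cardiomyocyte markers passed the filter and summed to 70990 to 90220 CPM (counts scaled to a common library size with TMM) per library. Markers of other cell types summed to 905 to 1534 CPM for mural cells, but to 12.5 to 38.5 CPM without Acta2, Abcc9 and Cspg4, which give most of that sum. Fibroblast markers summed to 241 to 470 CPM, and to 41.3 to 307 CPM without Gsn. The sums were 98.6 to 532 CPM for erythroid cells, 23.7 to 173 CPM for endothelial and endocardial cells, 15.1 to 24.1 CPM for the epicardium and 4.86 to 9.36 CPM for macrophages, the last being 1.11 to 2.16 CPM without Cd68. Fcgr1 of the macrophage list had 0 counts in all 8 libraries.

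Promoters are shown for Hand2 and Tbx20, members that were higher in litter 3 in the comparisons given further on, since they differ in how many sites of the 5 families they hold. They were taken from the RefSeq promoter table (build GRCm38.p6), which holds 6 of the 10 members. Each window is the 250 bases before the RefSeq start on the gene's own strand, at chr8:57320733-57320982 (plus strand) for Hand2 and chr9:24774304-24774553 (minus strand) for Tbx20. In GENCODE M21 the Hand2 window overlaps first exons of the noncoding antisense gene Hand2os1, and the Tbx20 window overlaps no exon. Capitals mark exact matches, on either strand, to letters typical of the 5 families: AGATAA for GATA factors, where the first letter may also be T and the last G, AAGTG for NKX2-5, GGTGTGA for T-box factors, CTA and TAG with 4 bases between them for MEF2, and the E-box CANNTG for HAND and other helix-loop-helix factors.
Hand2: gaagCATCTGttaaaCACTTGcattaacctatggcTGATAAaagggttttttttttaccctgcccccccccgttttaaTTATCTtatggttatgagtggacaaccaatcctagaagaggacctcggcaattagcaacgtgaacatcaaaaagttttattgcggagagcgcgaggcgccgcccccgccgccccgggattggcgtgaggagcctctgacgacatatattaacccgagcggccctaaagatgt
Tbx20: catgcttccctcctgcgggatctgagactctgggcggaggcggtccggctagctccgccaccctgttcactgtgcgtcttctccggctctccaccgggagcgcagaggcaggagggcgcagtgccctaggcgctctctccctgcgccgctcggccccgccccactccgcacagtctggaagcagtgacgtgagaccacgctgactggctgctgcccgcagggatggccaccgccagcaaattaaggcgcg
The Hand2 window held 2 GATA-type matches, 2 E-boxes and 1 NKX2-5-type match that overlaps the second E-box. The Tbx20 window held no family match. Of 32851 promoter windows of the same length, 26.5% held a GATA-type match, 40.7% an NKX2-5-type match, 66.2% an E-box, 3.33% a T-box-type and 3.20% a MEF2-type match. A match describes the letters alone. GC content was 68.8% in the Tbx20 window and 49.2% in the Hand2 window, against a median of 52.4% over all promoters.

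Levels were set side by side only per length, as CPM per kb of the union of a gene's exons in GENCODE M21. Nkx2-5 had the highest level at 96.4 ± 12.4 CPM per kb (SD over 8 libraries), which placed it above 97.4% of 13314 tested genes with a length. Gata4 followed at 57.5 ± 3.65 CPM per kb, then Mef2d at 53.1 ± 5.01, Hand2 at 41.8 ± 5.43, Gata6 at 41.1 ± 6.05, Mef2a at 33.8 ± 2.41 and Tbx20 at 33.7 ± 4.33 CPM per kb. Tbx5 lay lower at 10.4 ± 1.49 and Mef2c at 5.26 ± 0.541 CPM per kb. Hand1 was lowest at 1.51 ± 0.256 CPM per kb, above 29.2% of tested genes.

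With the exon union as length, the ranges over 8 libraries did not overlap between Nkx2-5 and Gata4, between Tbx20 and Tbx5, between Tbx5 and Mef2c, or between Mef2c and Hand1. From Gata4 down to Tbx20 each range overlapped that of the next gene, although genes further apart in the order could be separate: Gata4, at 52.3 to 61.4 CPM per kb, lay above all libraries of Hand2, Mef2a and Tbx20. Within libraries Mef2d was above Hand2, and Gata6 above Mef2a, in 8 of 8, Gata4 above Mef2d in 6 of 8, and Hand2 above Gata6, and Mef2a above Tbx20, in 5 of 8. The length used matters for genes with many exons: per kb of the longest transcript Mef2a had 89.5 CPM per kb and ranked second among the members instead of sixth. On that scale the range of Nkx2-5, 90.5 to 127.5 CPM per kb, overlapped that of Mef2a, 79.8 to 102.3. Mef2c, at 13.2 CPM per kb, then stood above Tbx5, at 12.3, with overlapping ranges, so the order of these 2 genes turns with the length used. Gata6, at 70.7, then stood above Gata4, at 66.1, and Mef2d, at 58.8, and Tbx20, at 44.5, above Hand2, at 41.8. The ranges overlapped in these pairs too.

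**Figure D1:**
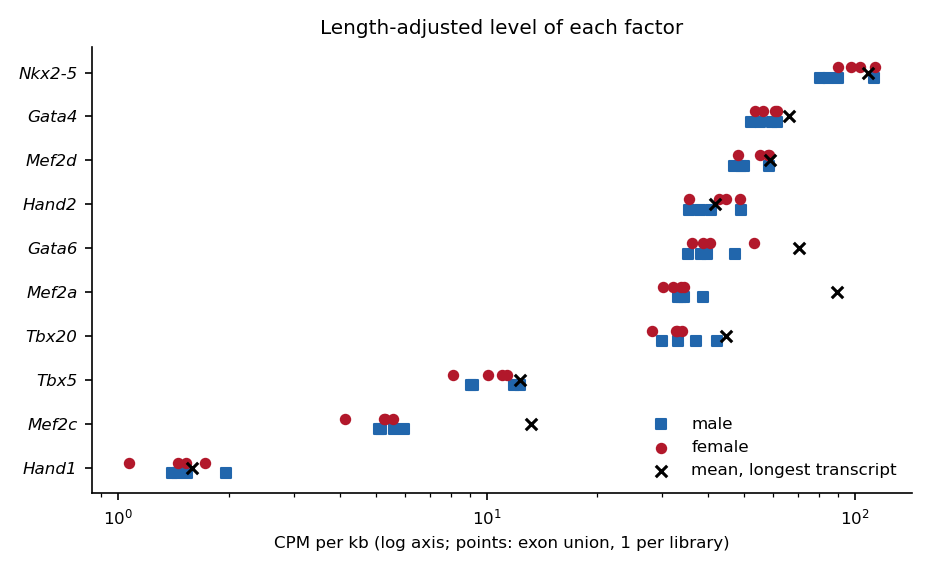
Level of each factor in CPM per kb on a log axis. Squares are male and circles female libraries with the exon union as length (4 each), and crosses are means with the longest transcript as length, for which Mef2a moves from 33.8 to 89.5.

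Close relatives of the members were scarce in these cells. Of 19 other GATA, NK2, MEF2 and T-box genes looked up, 5 passed the filter and 7 had no count in any library. Tbx18, an epicardial and sinus node factor, averaged 14.3 ± 4.96 CPM over the males and 14.2 ± 4.59 CPM over the females (SD, n = 4). Tbx3 and Tbx2, both known as repressors of chamber genes, averaged 4.81 ± 1.08 and 4.36 ± 1.78 CPM over the males, Gata2, known from endothelial and blood cells, 0.809 ± 0.597 CPM, and Tbx15 0.345 ± 0.112 CPM. By sex edgeR called 0 of these 5, against 0.0436% of all genes, and none of them with litter as a block. By litter it called 3 of 5, against 32.1% of all genes: Tbx18, Tbx2 and Gata2 (adjusted p = 0.000744, 0.00537 and 0.0116). In litter 3, where 13.6% of all genes were higher and 14.8% lower, Tbx18 and Tbx2 were higher by 0.83 and 0.87 on the log2 scale (adjusted p = 0.000125 and 0.0038), and Gata2, with 4 to 48 counts per library, was lower (-1.77, adjusted p = 0.0302).

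Neighbouring genes can add reads to a member, since the strand setting of the authors' counting is not given in the sources used here. Gata6, at chr18:11052064-11085635, overlaps 1010001N08Rik on the opposite strand, which had 27.7 to 40.2 CPM. The annotated antisense gene of Hand2 (chr8:57320983-57324633), Hand2os1, is listed under its older name Gm28063 with 1 to 4 counts, although 11.7% of the 100-base windows of the longest Hand2 transcript also occur in it. For Mef2d (chr3:88142372-88172086) 8.15% of windows occur in the antisense gene 1700113A16Rik, which had 5 to 19 counts, and for Mef2a (chr7:67231163-67372858) 3.73% occur in Lysmd4, at 15.3 to 20.9 CPM. No window of the longest transcript of the other 7 members, Gata6 included, occurred in a transcript of another gene, and the paralogs of this set share no such window. Gm43050, which starts 748 bases from Tbx5 on the opposite strand, had 6.95 to 9.83 CPM, and Gm44667, within Mef2a on the same strand and without exon overlap, 3.85 to 9.37 CPM. Gm44668, placed like Gm44667, had 0 to 3 counts. None of the 8 names looked up for antisense and divergent RNAs stands in the table under that name.

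The male and the female samples were compared first, since the study sampled both sexes of each litter. No difference by sex was called among the 10 factors: 0 of 10 passed an adjusted p-value of 0.05 in edgeR's quasi-likelihood test, and 0 of 10 had an unadjusted value below that threshold. DESeq2 also called 0. Over all tested genes 0.0436% were called, a share at which most lists of 10 give 0 calls, so the 0 does not set the members apart. The log2 fold changes (male minus female) ran from -0.14 for Nkx2-5 to 0.16 for Tbx20, each with an edgeR adjusted p of 0.9996, and the male and female values of each member overlapped. The median over the members was 0.03, against -0.00081 over all genes tested.

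Tbx20 had 397, 445, 506 and 359 CPM in the males of litters 1 to 4 and 395, 393, 407 and 337 CPM in the females. The male was the higher of the pair in 4 of 4 litters, although in litter 1 the values nearly coincided. Its log2 fold change was 0.16 (SE 0.11), with a 95% interval from -0.12 to 0.43, and it was 0.064 without the male of litter 3, 0.0999 without the female of litter 4 and at most 0.225 without another library. Nkx2-5 had 138, 145, 194 and 155 CPM in males and 155, 178, 194 and 168 CPM in females, the male being the lower in 4 of 4 litters, with nearly equal values in litter 3. Its log2 fold change was -0.14 (SE 0.12), with an interval from -0.42 to 0.15, and it was -0.0768 without the male of litter 1, -0.0863 without the female of litter 3 and -0.25 without the male of litter 3. With litter as a block these 2 genes had unadjusted p-values of 0.0231 and 0.0227 in edgeR and adjusted values of 0.372 and 0.371, so that 0 of 10 passed there too, with 0.211% of all genes called.

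Gata6 was also lower in the male of each litter, with log2 differences from -0.17 to -0.01, and its overall value was -0.07 (SE 0.13). The 95% intervals of the 10 members lay between -0.42 and 0.64. The widest was that of Hand1, from -0.36 to 0.64, whose 50 to 90 counts per library carry a counting error of 10.5 to 14.1%. These intervals take no account of litter. With litter as a block the standard errors were smaller, at 0.05 in place of 0.13 for Gata6 and 0.06 in place of 0.11 for Tbx20.

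**Figure D2:**
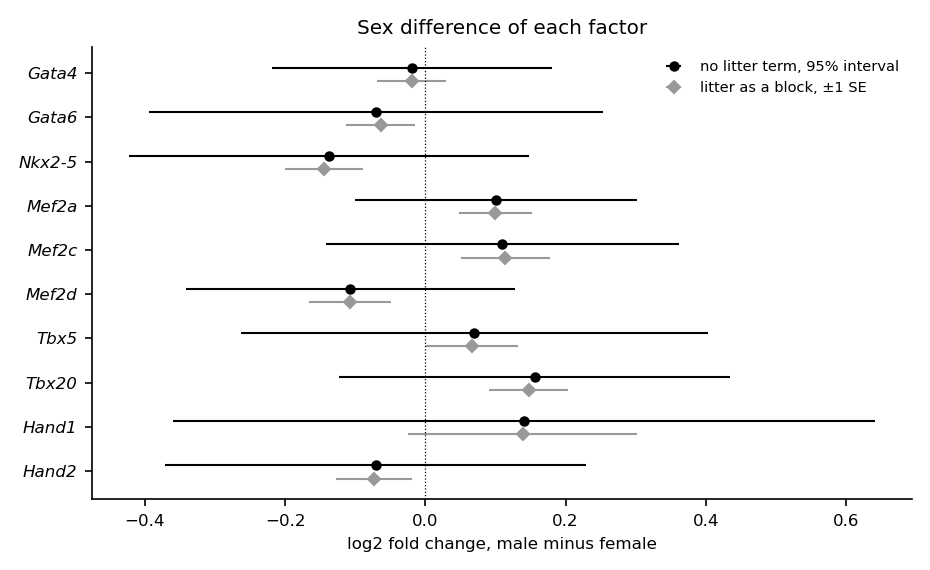
Sex difference of each factor as the log2 fold change, male minus female. Black points are the comparison without a litter term with 95% intervals, and grey diamonds have litter as a block with ±1 SE. The 10 black intervals each cross 0.

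Between litters some of the factors differed. In the joint test of the 4 litters, which takes sex into account, Gata6, Nkx2-5, Tbx5, Tbx20 and Hand2 differed between litters, 5 of 10 members against 32.1% of all tested genes. The members' median log2 range over litters was 0.40, against 0.37 over all genes. Gata4, Mef2a, Mef2c, Mef2d and Hand1 did not pass, with edgeR adjusted p-values from 0.0707 to 0.275. The same 5 genes were called by DESeq2. Coefficients of variation over the 8 libraries ran from 6.34% for Gata4 to 16.9% for Hand1, against a median of 13.3% over tested genes.

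**Figure D3:**
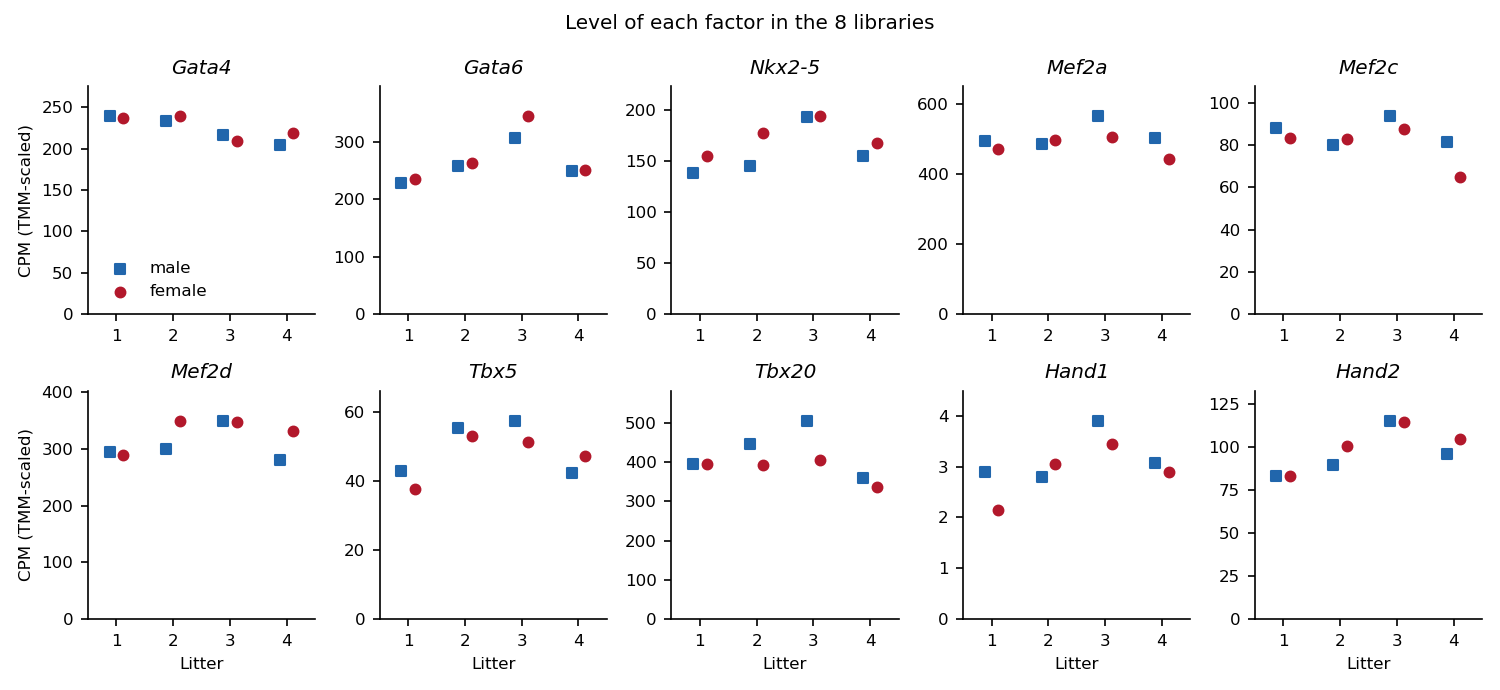
TMM-scaled CPM of each factor in the 8 libraries by litter, with axes from 0. Squares are male and circles female libraries (1 each per litter). Gata6, Nkx2-5, Mef2a, Hand1 and Hand2 have both libraries of litter 3 above the other 6.

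Litter 3 stood out by higher levels. Against the mean of the other 3 litters 5 members were higher and 0 lower, where 28.3% of all genes were called, 13.6% higher and 14.8% lower. None of the 10 was lower at an unadjusted p-value below 0.05 either, and DESeq2 called 0 lower. The members' median was 0.24 on the log2 scale, that of all genes 0.00013, and 9 of 10 members had a positive difference under TMM, DESeq2 size factors and library size alone. Both libraries of litter 3 lay above the other 6 for Gata6, Nkx2-5, Mef2a, Hand1 and Hand2, a pattern found in 15.1% of all genes, and below them for 0 members, against 16.4% of all genes. The 4 comparisons of 1 litter with the rest share libraries and are not independent.

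Gata6 had 307 CPM in the male and 346 CPM in the female of litter 3. The other males had 229, 258 and 249 CPM in litters 1, 2 and 4, and the other females 235, 264 and 252 CPM. Litter 3 was thus 1.32-fold higher than the mean of the other litters (log2 fold change 0.40, SE 0.06, edgeR adjusted p = 0.000371), and this call held in 15 of 15 alternatives, with adjusted p-values from 1.37e-08 to 0.0188. Litter 1 was lowest, at -0.26 on the same scale (SE 0.06, adjusted p = 0.0143). The opposite-strand neighbour 1010001N08Rik was also higher in litter 3 (log2 fold change 0.37, adjusted p = 0.00301), at 38.6 CPM against 28.5 to 30.9 CPM.

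Gata4 (chr14:63198922-63271692) did not follow its paralog. It had 240, 233, 216 and 204 CPM in the males of litters 1 to 4 and 237, 239, 209 and 219 CPM in the females, with litters 3 and 4 below litters 1 and 2. Its log2 fold change in litter 3 was -0.10 (SE 0.06, edgeR adjusted p = 0.199), the only negative one among the members.

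The ratio of Gata4 to Gata6 counts, which does not depend on library scaling, was 1.05, 0.901, 0.704 and 0.819 in the males of litters 1 to 4 and 1.01, 0.908, 0.604 and 0.871 in the females. Litter 1 was the highest and litter 3 the lowest in both sexes, and litters did not overlap. Litter took 93.9% of the variance of the log2 ratio (exact permutation test over the 105 ways to pair the 8 samples, p = 0.00952, the smallest possible, and 0.0476 adjusted over 5 ratios). This test was added after the data were seen. Without any 1 litter the share stayed between 89.8% and 94.6%, but the 15 pairings left cannot give a p-value below 0.0667.

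Nkx2-5 (chr17:26838664-26845009) was 1.25-fold higher in litter 3 (log2 fold change 0.32, SE 0.06, edgeR adjusted p = 0.00315), with 194 CPM in the male and 194 CPM in the female against 138 to 178 CPM in the rest. Litter 1 was lower by -0.23 (SE 0.06, adjusted p = 0.0357). Hand2 had 83.2, 89.3, 115 and 95.7 CPM in the males of litters 1 to 4 and 83.3, 100, 115 and 105 CPM in the females. The sexes ordered the litters alike, with litter 1 lowest and litter 3 highest. Hand2 was 1.25-fold higher in litter 3 (0.32, SE 0.06, adjusted p = 0.00285) and lower in litter 1 (-0.31, SE 0.06, adjusted p = 0.00851). Of the 45 pairs of members, Nkx2-5 and Hand2 had the most alike profiles, with a root mean square difference of 0.0678 on the log2 scale over 8 libraries.

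Hand1 (chr11:57828705-57832818) was the least abundant member, at 3.91 and 3.44 CPM in the male and female of litter 3 and 2.14 to 3.07 CPM in the other libraries. Its log2 fold change in litter 3 was 0.39, about that of Gata6, but with an SE of 0.19 it did not pass (edgeR adjusted p = 0.140).

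Tbx5 (chr5:119832668-119885219) followed another order. It had 43.0, 55.4, 57.6 and 42.5 CPM in the males of litters 1 to 4 and 37.8, 53.0, 51.4 and 47.2 CPM in the females, so that litters 2 and 3 lay above litters 1 and 4 in both sexes. It was higher in litter 3 (log2 fold change 0.24, SE 0.08, edgeR adjusted p = 0.0332) and lower in litter 1 (-0.34, SE 0.08, adjusted p = 0.0145). Tbx20 (chr9:24718138-24774303) was higher in litter 3 (0.23, SE 0.06, adjusted p = 0.0180), where the male had 506 CPM but the female, at 407 CPM, lay within the range of the other litters. It was lower in litter 4 (-0.28, SE 0.07, adjusted p = 0.0224), where both libraries were below the other 6. Without the male of litter 4 this log2 difference was -0.24, and without the female of litter 4 it was -0.32. Mitochondrial genes took 18.5% of the reads counted in that male and 13.4 to 15.2% in the other libraries. With mitochondrial genes left out of the counts and the scaling, Tbx20 in litter 4 stayed at -0.28 (adjusted p = 0.0203); this bears on scaling alone, and the part of RNA quality was not tested.

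None of the MEF2 genes passed in litter 3. Mef2a had 566 and 505 CPM in the male and female of litter 3 and 442 to 504 CPM in the other libraries. Its log2 fold change in litter 3 was 0.15 (SE 0.06), that of Mef2c (chr13:83504034-83667080) 0.18 (SE 0.07) and that of Mef2d 0.19 (SE 0.07), with edgeR adjusted p-values of 0.0779, 0.0821 and 0.0536. Scaled by library size without TMM, which moves the median of all genes in litter 3 to 0.0444, these 3 genes passed there as well, so that 8 members did. Mef2d also passed in litter 3 with DESeq2 size factors in edgeR and with no low-count filter. Mef2c was lowest in the female of litter 4, at 64.8 CPM against 80.0 to 93.8 CPM in the other 7 libraries.

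Several of these calls were lost when 1 library was left out. Without the male of litter 3 only Gata6 still passed in litter 3, the adjusted p-values of Nkx2-5, Hand2, Tbx5 and Tbx20 being 0.0940, 0.0675, 0.317 and 0.359, and over their 15 alternatives each they ran from 2.87e-05 to 0.0940, 0.000119 to 0.0675, 0.00896 to 0.317 and 0.0013 to 0.359. The log2 difference of Tbx20 fell to 0.12 without that male, from 0.23, and ran from 0.12 to 0.34 over the libraries left out. Those of Nkx2-5, Hand2 and Tbx5 ran from 0.225 to 0.408, 0.261 to 0.367 and 0.172 to 0.299, and that of Gata6 from 0.322 to 0.468. Tbx5 also lost the call in litter 3 without the female of litter 1 or 3, without the male of litter 4, with DESeq2 and with no sex term, and Tbx20 without the male of litter 1 or with no sex term. Without the female of litter 2, 8 members passed. In litter 1, 4 members were lower and 0 higher (5.41% and 7.86% of all genes), and without either library of litter 1 none of the 4 passed, although the log2 differences stayed at -0.22 to -0.42 without the male and -0.24 to -0.26 without the female. Nkx2-5 also lost that call without the female of litter 2, without the male of litter 3 and with no sex term. The call of Tbx20 in litter 4, where 5.80% of all genes were lower, was lost without the female of litter 1, without either library of litter 4 and with no sex term. Higher in litter 4 were 0 members and 4.71% of all genes. In litter 2 edgeR called 0 members, although Tbx5 had an unadjusted p-value below 0.05, and DESeq2 called 0. Over all genes 4.18% were called in litter 2, 3.30% higher and 0.879% lower.

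**Figure D4:**
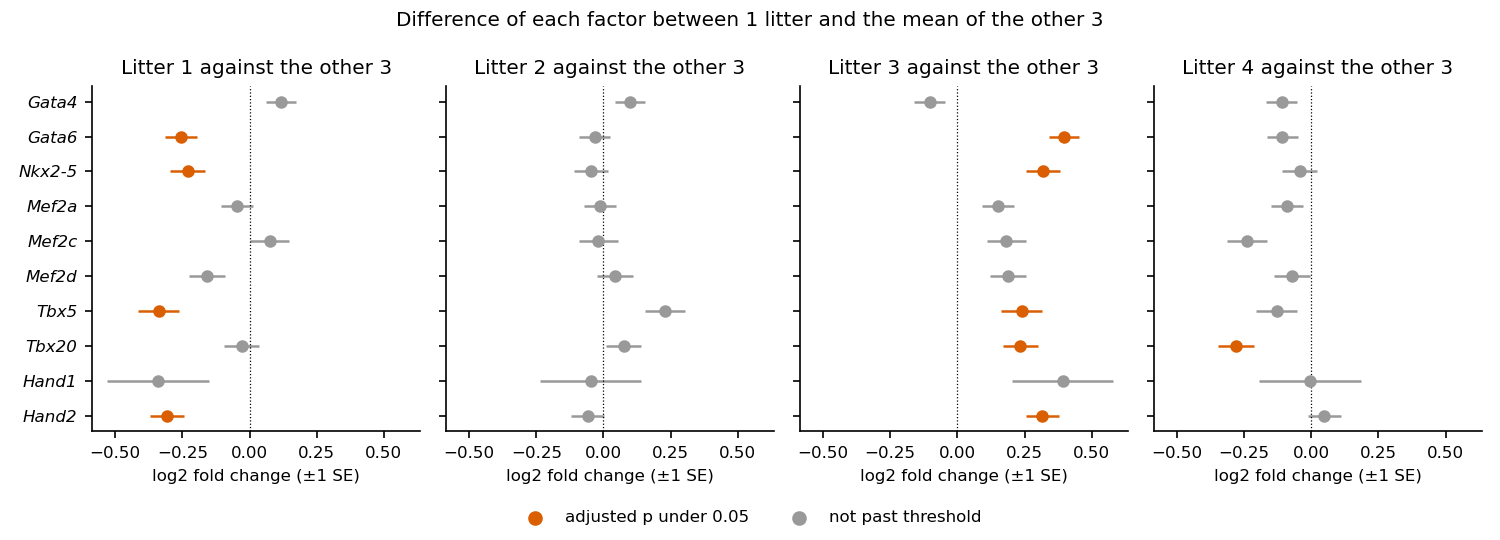
Log2 fold change of each factor in 1 litter against the mean of the other 3, with ±1 SE (edgeR, 8 libraries). Orange points passed an adjusted p-value of 0.05: 4 in litter 1, all below 0, 5 in litter 3, all above 0, and Tbx20 in litter 4.

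Cell markers moved with litter as well. The cardiomyocyte list summed to 74240 CPM in the male and 70990 CPM in the female of litter 3, where the other 6 libraries had 78990 to 90220 CPM. Mural markers without Acta2, Abcc9 and Cspg4 summed to 12.5 and 12.5 CPM against 16.7 to 38.5 CPM, and Acta2 itself had 369 and 343 CPM against 805 to 1037 CPM. Fibroblast markers without Gsn summed to 61.6 and 41.3 CPM against 129 to 307 CPM, and the median of the list in litter 3 was -1.83, while Gsn was higher there by 0.22 (edgeR adjusted p = 0.0127). In litter 3, 5 of 11 cardiomyocyte, 5 of 9 mural, 8 of 11 fibroblast and 8 of 11 endothelial and endocardial markers were lower, while 1, 0, 1 and 0 were higher, where 14.8% of all genes were lower and 13.6% higher. Endothelial and endocardial markers were most abundant in litter 2, at 110 and 173 CPM against 23.7 to 75.1 CPM. The atrial list summed to 1488 and 1769 CPM in litter 3 and 341 to 1018 CPM elsewhere, but Nppa gave 1176 and 1511 CPM of it there. Without Nppa the sums were 313 and 258 CPM, within the 163 to 543 CPM of the other libraries. Epicardial markers summed to 24.1 and 23.9 CPM against 15.1 to 20.9 CPM, of which Tbx18 gave 21.4 and 21.1 CPM. Without Tbx18 the sums were 2.73 and 2.82 CPM against 3.27 to 7.20 CPM, and of the 8 tested epicardial markers 1 was higher and 3 lower in litter 3. Erythroid markers summed to 532 CPM in the male of litter 3 and 98.6 to 247 CPM in the other libraries, with 2 of 6 tested higher in litter 3 and 0 lower. With any 1 library left out, that male included, the 5 members called in litter 3 kept positive log2 differences there. These were at least 0.12 for Tbx20 and at least 0.172 for the others. In litter 1, 5 of 14 atrial markers (Nppa, Gja5, Dkk3, Stard10 and Tbx5 itself) and 3 of 8 tested conduction markers (Gja5 again, Cpne5 and Irx3) were lower and 0 of either list higher, with list medians of -0.63 and -0.50, where 5.41% of all genes were lower. In litter 4, 7 of 11 fibroblast markers were higher and 0 lower, with a median of 0.56, where 4.71% of all genes were higher. In litter 2, 8 of 11 fibroblast markers were higher, with a median of 0.91, where 3.30% of all genes were higher. Also higher there were 10 of 11 endothelial and endocardial, 4 of 9 mural and 3 of 8 tested epicardial markers, with 0 lower in each of these 4 lists. The part of these markers in the litter differences of the 10 factors was not tested, and in bulk libraries fewer cells of a type and less RNA per cell cannot be told apart.

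The other family ratios were examined in the same way. Hand1 to Hand2 was 0.0347, 0.0312, 0.0339 and 0.0321 in the males of litters 1 to 4 and 0.0257, 0.0305, 0.0300 and 0.0277 in the females. All 4 males lay above all 4 females. The exact two-sided permutation p over 70 splits was 0.0286, the smallest possible, and 0.143 when adjusted over 5 ratios. These splits, used for each ratio by sex, exchange samples across litters and do not keep the pairs of littermates. The Hand1 counts in this ratio carry a counting error of 10.5 to 14.1% per library. Mef2d to Mef2c was 3.56 ± 0.205 in males and 4.19 ± 0.685 in females (SD, n = 4), lower in the male of 4 of 4 litters, with an exact permutation p of 0.114 (adjusted 0.286). The female of litter 4 had 5.11 and the other females 3.47 to 4.22, and without it the log2 difference was -0.124 in place of -0.22. Mef2a to Mef2c ran from 5.61 to 6.82 over the libraries and Tbx5 to Tbx20 from 0.0956 to 0.140. By sex these ratios and Gata4 to Gata6 had adjusted exact p-values of 0.886 each. By litter, Mef2a to Mef2c had 78.6% of its variance between litters (exact permutation p = 0.0190, adjusted 0.0476), while the remaining 3 ratios had adjusted exact p-values from 0.254 to 0.943. Litters 2 and 3 overlapped in Mef2a to Mef2c, at 5.98 to 6.09 and 5.78 to 6.04. The test by litter was added for each ratio after the data were seen.

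**Figure D5:**
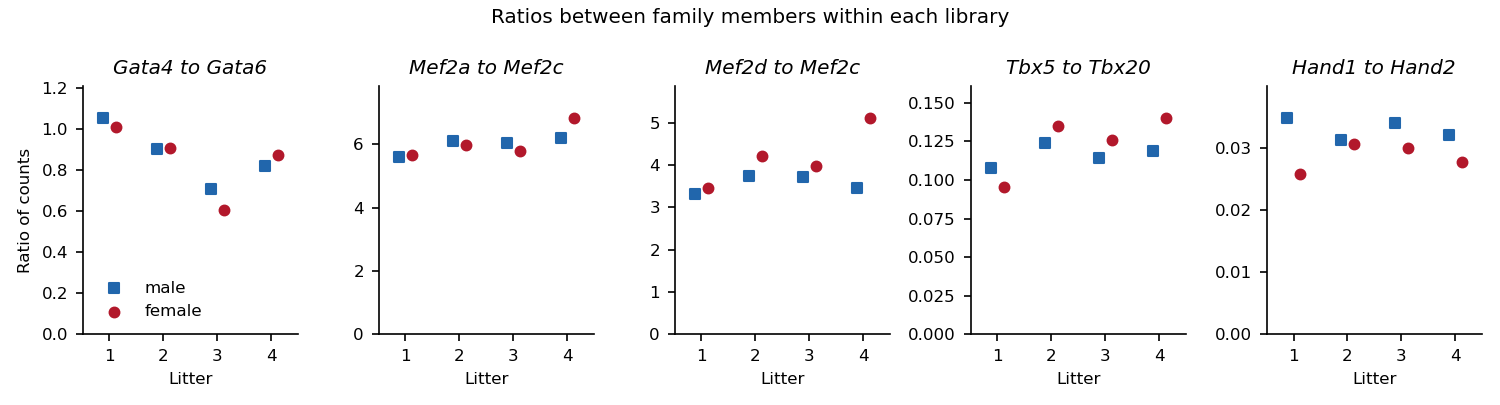
Ratio of counts between 2 members of a family within each library, by litter, with axes from 0. Squares are male and circles female libraries. Gata4 to Gata6 is highest in litter 1 and lowest in litter 3 in both sexes, and Hand1 to Hand2 is higher in the male of each litter.

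Partners of the core factors were read from a list of 35 genes that covers cofactors, corepressors, chromatin proteins and chamber-specific homeobox and HEY factors. By sex edgeR called 0 of the 34 that passed the filter, 0 had an unadjusted p-value below 0.05, and DESeq2 called 0. With litter as a block edgeR also called 0, and Hdac4, Hdac5, Crebbp, Nfatc3 and Tcf12 had unadjusted p-values below 0.05. Isl1, an early progenitor factor, had 1 to 3 counts and was not tested. By litter 17 of 34 (50%) passed, against 32.1% of all genes, and in litter 3 the list had 10 higher and 5 lower, against 13.6% and 14.8% of all genes, with a median of 0.09 against 0.00013. The 5 with the smallest adjusted p-values by litter were Hey2, Irx4, Tead1, Hdac9 and Smyd1.

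Irx4 and Hey2, which are known to keep ventricular identity, had 142, 165, 203 and 179 CPM and 92.3, 111, 138 and 136 CPM as means of litters 1 to 4 (edgeR adjusted p by litter = 0.00126 and 0.000547). They were the 2 of 9 ventricular markers called higher in litter 3, while 4 (Myl2, Myl3, Kcne1 and Kcnj2) were lower. For all genes these shares were 13.6% and 14.8%. The ventricular list summed to 20790 and 21550 CPM in litter 3, against 23340 to 26780 CPM in the other libraries. In litter 4, 4 ventricular markers were higher and 0 lower. Hdac9, a class II deacetylase that binds MEF2 and is also counted as a MEF2 target, averaged 63.9 CPM in litter 3, where the other litter means were 43.2 to 49.1 CPM, a log2 difference of 0.50 (SE 0.07, edgeR adjusted p = 0.000296). Hdac4 and Hdac5 of the same class, named here with Hdac7 after their values were seen, were higher in litter 3 by 0.27 (SE 0.07, adjusted p = 0.0149) and 0.30 (SE 0.07, adjusted p = 0.0106). Hdac7 was not called there (0.01, SE 0.07, adjusted p = 0.935). Tead1, which binds muscle gene promoters, had 337, 321, 309 and 241 CPM as litter means and was lowest in litter 4. Smyd1, a muscle histone methyltransferase gene, was lower in litter 3 (-0.35, SE 0.06, adjusted p = 0.00108). The GATA cofactor gene Zfpm2, also chosen after its values were seen, differed by 0.16 in litter 3 (SE 0.09) and did not pass (adjusted p = 0.208).

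Known targets of the factors were read from a list of 32 genes, most of them for contractile, channel and natriuretic peptide proteins, with a few others such as Hdac9, Bmp10, Ckm, Hspb7 and Alpk3. By sex edgeR called 0 of 32, although Myl4 and Myl7, the atrial light chain genes, had unadjusted p-values below 0.05, and DESeq2 called 0. With litter as a block 1 passed, the sodium-calcium exchanger gene Slc8a1, higher in males by 0.29 (edgeR adjusted p = 0.0466), where 0.211% of all genes passed, and 9 targets had an unadjusted p-value below 0.05. In the same blocked fit 5 of 11 fibroblast markers, Col1a1, Col1a2, Col3a1, Dcn and Postn, were higher in males (log2 differences 0.67 to 1.14, edgeR adjusted p-values 0.000315 to 0.00545), and 1 of 11 endothelial and endocardial markers, Cldn5, was lower (-2.21, adjusted p = 0.0259). The part of these markers in the sex differences of Slc8a1, Nkx2-5 and Tbx20 was not tested. By litter 19 of 32 (59.4%) passed, against 32.1% of all genes. In litter 3 the list had 4 higher (Nppa, Myh7, Slc8a1 and Hdac9) and 10 lower, against 13.6% and 14.8% of all genes, with a median of -0.08 against 0.00013. The 5 with the smallest adjusted p-values by litter were Myh7, Xirp2, Nppa, Actc1 and Slc8a1.

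The targets moved in both directions in litter 3. Nppa, the atrial natriuretic peptide gene, averaged 1343 CPM there, where the other litter means were 256 to 327 CPM (log2 difference 2.26, SE 0.21, edgeR adjusted p = 2.15e-05). Myh7, the slow myosin heavy chain gene, was higher by 2.74 (SE 0.08, adjusted p = 5.13e-09). Lower in litter 3 were Myh6 (-0.61, SE 0.09, adjusted p = 0.000622), the fast heavy chain, Actc1 (-0.67, SE 0.07, adjusted p = 4.83e-05), the cardiac actin, and Xirp2 (-1.10, SE 0.08, adjusted p = 2.42e-06), an actin-binding protein of the intercalated disc. The sequences of Myh6 and Myh7 are close, and whether reads were counted for the wrong gene of the pair was not tested. Tnnt2, the cardiac troponin T gene, differed by 0.11 (SE 0.06) and did not pass (adjusted p = 0.169). Myh6 and Tnnt2 were chosen after their values were seen.

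Other tested genes with profiles most like those of the litter-called members were named by the smallest root mean square difference of centred log2 CPM over 8 libraries. Nearest to Gata6 were Csnk1e, Eml3 and Cog7, at 0.0331, 0.0347 and 0.0493, where the profile of Gata6 itself departs from its mean by 0.187. Nearest to Nkx2-5 were Tbc1d9b, Shmt2 and Tgfbr3 at 0.0449 to 0.0481, to Hand2 Grik5, Wdr6 and Cbr1 at 0.0468 to 0.0471, and to Tbx20 Qk, Ubr1 and Ythdf3 at 0.0511 to 0.0615. Tbx5 had the most distant neighbours, Ripk1, Smg8 and Arf3, at 0.0750 to 0.0889.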

How the data were processed

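Raw read counts were deposited by the authors as a single table of 48440 gene symbols by 8 samples. The submitters' processing notes name STAR 2.7.3a and mm10. The counting program, annotation and strand setting are not given in the sources used here. Counts were analysed in R 4.3.3 with edgeR 4.0.16 and DESeq2 1.42.0, and in Python 3.11.15 with scipy 1.17.1. The filterByExpr filter on sex left 13771 genes, and TMM set the library scaling. Sex was tested by edgeR's quasi-likelihood test without a litter term (6 residual degrees of freedom). Litters were tested together, and each against the mean of the other 3, in a model with sex (3 residual degrees of freedom). Benjamini-Hochberg adjustment ran over all tested genes, with a threshold of 0.05. Each standard error is the absolute log2 fold change over the root of its F statistic, and 95% intervals of sex differences come from it. Log2 CPM for profiles used a prior count of 2. The scripts were tested on simulated data.

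The sample number is the litter per the labels, so it pairs a male with a female. With sex means removed, the correlation across genes between littermates was 0.506, 0.503, 0.696 and 0.367 in litters 1 to 4, and -0.482 to 0.270 between litters. Same-sex libraries differed beyond counting noise (chi-square over its degrees of freedom 9.98 to 46.7), so each counted as 1 sample. Positions are from GENCODE M21 on GRCm38, the assembly of mm10, and 46368 entries matched it by symbol. The members, lists and tests were chosen with earlier results of these data known. Named were the 10 members, the paralogs passing the filter, neighbours on the genome present in the table, the partners and targets called by sex, the 5 of each of those lists with the smallest adjusted p by litter, and the 3 tested genes nearest in profile to each member called by litter. Other genes named (Isl1, Myl4, Myl7, Hdac4, Hdac5, Hdac7, Zfpm2, Myh6, Tnnt2, the partners with unadjusted p-values and cell markers) were chosen after their values were seen.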

Additional observations from a re-analysis of the deposited data

Results flagged for a closer look

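Of 34 groups of 4 libraries of 1 sex, covering the members' CPM, the family ratios and the summed partner and target lists, 1 had a library far from the other 3, where chance gives about 1.7. The summed level of the target list in males was 93740 CPM in litter 3, below the 104200 to 106100 CPM of the other males. The female of litter 3 was lowest as well, with 91700 CPM where the other females had 108300 to 117300 CPM, but did not meet the same criterion.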

How the results depend on the processing

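The 0 members called by sex stayed 0 in 19 of 19 alternatives, as did the 0 partners, and the 5 members called by litter stayed within 1.5 times in 16 of 19. With the replicate block 29 genes of the whole table passed by sex instead of 6, and 1 target instead of 0, and with DESeq2 11 genes did; the block changed no call among the members. With library size alone 8 members passed in litter 3 and 2 in litter 4, with no low-count filter 2 members in litter 4 and 30 targets by litter, with a mean of at least 50 counts 2 members in litter 4, and with no sex term 3 in litter 3 and 0 in litter 4. Leaving out 1 library or 1 litter gave 1 to 6 members by litter, 10 to 21 partners, 7 to 25 targets and 1898 to 4586 genes in all. Leaving out 1 library gave 0 to 4 members in litter 1, 0 to 1 in litter 2, 1 to 8 in litter 3 and 0 to 2 in litter 4, with the remaining sample of that litter assumed to vary like the others. By sex these fits gave 0 members, 0 partners, 0 targets and 5 to 8 genes.

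Without litter 3, Tbx5 alone passed by litter, and without litter 1 Gata6 and Tbx20. Of the 5 calls by litter, adjusted p-values over alternatives reached 0.229 for Gata6, 0.306 for Nkx2-5, 0.0806 for Tbx5, 0.145 for Tbx20 and 0.0823 for Hand2. Single libraries that ended such a call were the male of litter 3 for Nkx2-5 and Tbx20, the male of litter 4 for Tbx20 and the female of litter 1 for Tbx5. Mef2c gained it in 6 alternatives and Mef2d in 3. Without 1 library or litter the sex difference ran from -0.0625 to 0.0163 for Gata4, -0.025 to 0.134 for Tbx5 and -0.158 to 0.052 for Gata6. That of Gata4 changed sign without the female of litter 1 (0.00456), the male of litter 4 (0.0163) or litter 4 (0.00352), that of Tbx5 without the female of litter 1 (-0.025) or the male of litter 3 (-0.00864), and that of Gata6 without the female of litter 3 (0.052). In the ratios by sex, Gata4 to Gata6 ran from -0.11 to 0.14 on the log2 scale without 1 library or litter (-0.0504 without the male of litter 1, -0.0143 without litter 3) and Mef2a to Mef2c from -0.0471 to 0.0428 (0.0152 without the male of litter 1, 0.0256 without litter 4), while Mef2d to Mef2c ran from -0.31 to -0.109, Tbx5 to Tbx20 from -0.202 to -0.0186 and Hand1 to Hand2 from 0.141 to 0.275. The cause was not tested. By litter, the 15 pairings of 3 litters cannot reach the threshold. The shares without litters 1 to 4 were 89.8%, 93.6%, 93.8% and 94.6% for Gata4 to Gata6 and 63.7%, 79.0%, 81.0% and 80.7% for Mef2a to Mef2c. Per kb of the longest transcript, levels were 66.1 for Gata4, 70.7 for Gata6, 89.5 for Mef2a, 13.2 for Mef2c, 58.8 for Mef2d, 12.3 for Tbx5 and 44.5 CPM per kb for Tbx20. Counting error limits Hand1 alone among the members.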
